A study of Arabidopsis thaliana with 16 samples.

Results

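The 37 genes described here drive or carry out the plant cell division cycle. They comprise 10 genes of replication origin licensing, 4 of DNA synthesis, 2 E2F transcription factors, 3 D3-type cyclins, 11 mitotic cyclins and B-type cyclin-dependent kinases, and 7 genes of mitosis and cytokinesis. They were taken by locus identifier from a table of 32548 genes, of which 20846 were tested. All 37 were in the table and passed the filter on low values, a normalised read count of at least 10 in at least 2 libraries.

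RNA was sequenced from Arabidopsis thaliana seedlings, 14 days old, grown on plates in long days, with 16 h of light (23 °C) before 8 h of darkness (22 °C). The genotypes were the single mutants hda6(-/-) and hda19(-/-), the quadruple mutant sant1234 (sant1(-/-), sant2(-/-), sant3(-/-) and sant4(-/-)), the triple mutant mbd124 (mbd1(-/-), mbd2(-/-) and mbd4(-/-)), the double mutants esant12 (esant1(-/-) and esant2(-/-)) and arid14 (arid1(-/-) and arid4(-/-)), the single mutant rxt3(-/-), and the wild type Col-0 (WT). HDA6 and HDA19 are histone deacetylases of the RPD3 type, which remove acetyl groups from histones, and the series title speaks of plant-specific complexes formed by such enzymes. Each genotype had 2 libraries, 16 in all, and the labels do not say whether they came from separate plants, so p-values measure only the spread between these libraries, which may be technical. The labels give no alleles.

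A cell that will divide first loads the MCM helicase onto replication origins with the help of ORC, CDC6 and CDT1, in a step called licensing, and then copies its DNA with PCNA as the sliding clamp and deoxynucleotides made by ribonucleotide reductase. D-type cyclins promote entry into this phase by relieving the retinoblastoma protein's hold on E2F factors. Cyclins of the A and B type with their kinases, Aurora kinases, the spindle checkpoint and the syntaxin KNOLLE then act in mitosis and in building the new wall. In Arabidopsis seedlings these genes are most active in meristems and young leaves, and many older cells copy DNA without dividing.

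Promoters of licensing and mitotic genes are shown because the calls in these groups mostly ran in opposite directions and each group is known for a short promoter motif. The share of licensing tests called lower, 15.7%, was near that of all genes, 14.5%. The share of mitotic tests called higher, 14.3%, was likewise near that of all genes, 12.5%. Of the genes printed, MCM6, CYCB1;1 and CYCB2;1 were called in no mutant. Each line is the 150 bases before the annotated transcript start in the TAIR10.1 genome of RefSeq, 5′ to 3′ on the gene's own strand, with E2F-type letters (TTTCCCGC, TTTGGCGC, TTTGCCGC or TTTCGCGC) or the mitosis-specific activator core (AACGG) in capitals, on either strand. None of these letter strings contains another.
MCM2 (chr1:16970064-16970213, plus strand): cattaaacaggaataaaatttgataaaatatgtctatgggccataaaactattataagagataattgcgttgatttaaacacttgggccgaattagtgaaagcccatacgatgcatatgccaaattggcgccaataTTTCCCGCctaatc
MCM5 (chr2:3527501-3527650, minus strand): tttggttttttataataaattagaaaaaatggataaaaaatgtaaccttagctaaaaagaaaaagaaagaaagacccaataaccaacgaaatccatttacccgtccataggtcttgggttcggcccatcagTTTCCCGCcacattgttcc
MCM6 (chr5:18010668-18010817, minus strand): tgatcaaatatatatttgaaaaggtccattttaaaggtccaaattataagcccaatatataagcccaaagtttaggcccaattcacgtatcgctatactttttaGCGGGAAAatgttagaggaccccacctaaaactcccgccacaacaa
CYCB1;1 (chr4:17624309-17624458, minus strand): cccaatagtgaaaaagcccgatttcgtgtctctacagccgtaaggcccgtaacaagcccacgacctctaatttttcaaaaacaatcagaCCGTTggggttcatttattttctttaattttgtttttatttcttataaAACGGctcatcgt
CYCB1;2 (chr5:1861704-1861853, minus strand): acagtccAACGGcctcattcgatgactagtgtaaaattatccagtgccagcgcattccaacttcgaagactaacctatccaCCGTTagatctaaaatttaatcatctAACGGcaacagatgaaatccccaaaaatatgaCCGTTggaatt
CYCB2;1 (chr2:7663905-7664054, plus strand): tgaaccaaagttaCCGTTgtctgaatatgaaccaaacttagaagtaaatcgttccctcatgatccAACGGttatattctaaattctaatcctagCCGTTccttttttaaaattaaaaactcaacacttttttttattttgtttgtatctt
Over the window of 250 bases before to 50 bases after the start, E2F-type letters were in 6 of the 10 licensing promoters (MCM2, MCM3, MCM4, MCM5, MCM6 and ORC1A) and in no promoter of the 18 mitotic genes. Over all 37 genes they were in 7, or 18.9%, against 1.76% of 27443 protein-coding promoters of the same length. The core AACGG was in 7 of the 11 cyclin and kinase promoters and in 6 of the 7 promoters of mitosis genes, but also in 3 of the 10 licensing promoters (MCM6, MCM7 and CDT1A), and in 18 of all 37, or 48.6%, against 24.7% of protein-coding promoters. CYCB1;2 held 5 copies of it in this window, 4 of them in the stretch printed. Site II letters (TGGGCC or TGGGCT) were in 7 of the 10 licensing promoters, in 2 of the 11 cyclin and kinase promoters and in 29.7% of the 37, against 21.7% of protein-coding promoters. RNR2A, TSO2, CDC6, CYCA2;3 and CDC20.1 held none of the 3 motifs in this window. Neither did PCNA1, E2FB, CYCD3;2, CDKB1;1, CDKB1;2 and CDKB2;1, of which only CYCD3;2 was called in any mutant. CYCA2;3 and CDC20.1 were called higher in 4 and 5 mutants, and no other mitotic gene had a call that held with each library left out.

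The recovered depth was 19259579 to 19522197 reads per library. The values are the authors' normalised read counts, adjusted so that libraries are comparable. As a check of the labels, HDA19 transcript was at 0.136% of WT in hda19, MBD1, MBD2 and MBD4 at 0.469%, 37.6% and 6.23% in mbd124, ARID1 at 49.7% in arid14, and HDC1, the plant relative of yeast Rxt3, at 29.6% in rxt3. HDA6 in hda6 (113% of WT, adjusted p = 0.14) and ARID4 (AT3G43240) in arid14 (92.0%, adjusted p = 0.32) were not called by limma, and the SANT and ESANT loci were not checked here. WT library 1 exceeded WT library 2 for 32 of the 37 genes, with summed counts of 9027 and 8051, and every comparison with WT uses these libraries. The sum was also higher in library 1 than in library 2 in 6 of the 7 mutants, esant12 being the exception. Without WT library 1, 15 of the 47 calls described below were lost, and without WT library 2, 21 of 47.

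Among the 37 genes, ribonucleotide reductase RNR2A was lower than WT in every mutant, the called licensing genes were lower except for 2 in esant12, and the called mitotic genes were all higher. Calls are limma differences with an adjusted p (Benjamini-Hochberg, over all 20846 genes) under 0.05. The shares were near those of all genes, with 15.7% of licensing tests lower, against 14.5%, and 14.3% of mitotic tests higher, against 12.5%. Of the mitotic calls, only CYCA2;3 and CDC20.1 in rxt3 held with each library left out. Every other mitotic call but that of CDC20.1 in sant1234 was lost without WT library 2. Against WT, hda6 had 0 genes called higher and 4 lower, where 11.2% and 12.5% of all genes tested were called. The mutant hda19 had 3 higher and 3 lower (14.0% and 16.2% of all genes), and sant1234 had 3 higher and 2 lower (8.53% and 11.3%). In mbd124 there was 1 higher and 2 lower (4.73% and 5.27%), and in esant12 there were 6 higher and 3 lower (11.5% and 14.3%). The largest counts were 3 higher and 7 lower in arid14 (15.1% and 17.2%) and 7 higher and 3 lower in rxt3 (22.3% and 24.9%).

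As shares of the 37, the counts were 0% higher and 10.8% lower in hda6, 8.11% and 8.11% in hda19, 8.11% and 5.41% in sant1234, 2.7% and 5.41% in mbd124, 16.2% and 8.11% in esant12, 8.11% and 18.9% in arid14, and 18.9% and 8.11% in rxt3. Only the higher share in esant12 and the lower shares in arid14 and mbd124 were above the share of all genes, and these by less than 5 percentage points. In hda6, the 0 higher calls were also 0 at an unadjusted p under 0.05 in limma, and 0 by edgeR and by DESeq2. Several counts rested on single libraries. Without WT library 2 the higher counts became 1 in sant1234, 2 in esant12, 0 in arid14 and 3 in rxt3. Without WT library 1 the higher count became 5 in arid14, and the lower counts 1 in hda19, 3 in arid14 and 1 in rxt3. Without library 1 of the mutant the higher counts became 1 in sant1234, 3 in esant12, 0 in arid14 and 3 in rxt3, and the lower counts 4 in arid14 and 1 in rxt3. Without library 2 of the mutant the higher counts became 1 in sant1234, 2 in esant12 and 1 in arid14, and the lower counts 1 in hda19, 4 in arid14 and 1 in rxt3. In sant1234 the lower count became 1 without any of the 4 libraries. In mbd124 the higher call was lost without any of the 4 libraries, and the lower count became 1 without either WT library.

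**Figure D1:**
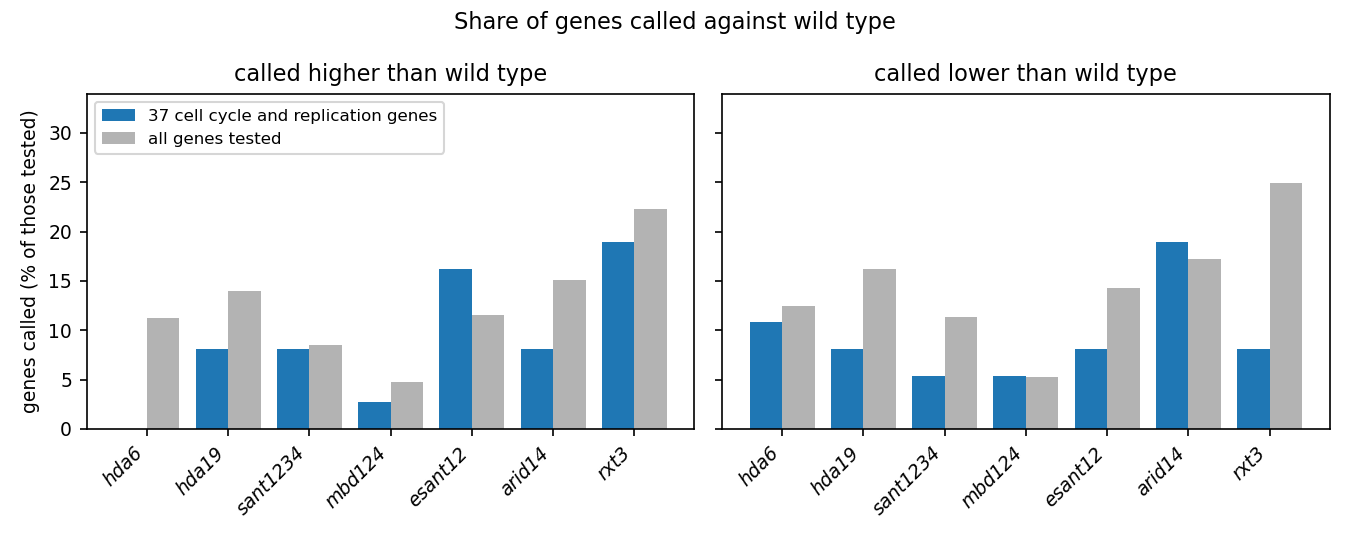
Bars give the share of the 37 cell cycle and replication genes (blue) and of all 20846 genes tested (grey) that were called higher (left panel) or lower (right panel) than WT in each mutant, in percent of genes tested. The blue bar stands above the grey one only for higher genes in esant12 (16.2% against 11.5%) and for lower genes in arid14 (18.9% against 17.2%) and mbd124 (5.41% against 5.27%).

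The changes were small. Of the 47 calls in 259 tests, 23 were higher and 24 lower, 37 were under 1.5-fold, and only CDC6 in esant12 reached a log2 difference of 1. The median log2 difference over the 37 genes was -0.12 in hda6, 0.01 in hda19, 0.05 in sant1234, 0.08 in mbd124, 0.18 in esant12, -0.03 in arid14 and 0.19 in rxt3, while that over all genes tested lay between -0.02 and 0.01. In all, 19 genes were called in at least 1 mutant, and 18 in none. An F test over all genotypes called 17 of the 37, against 71.8% of all genes. In seedlings, fewer dividing cells and less transcript per dividing cell cannot be told apart.

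**Figure D2:**
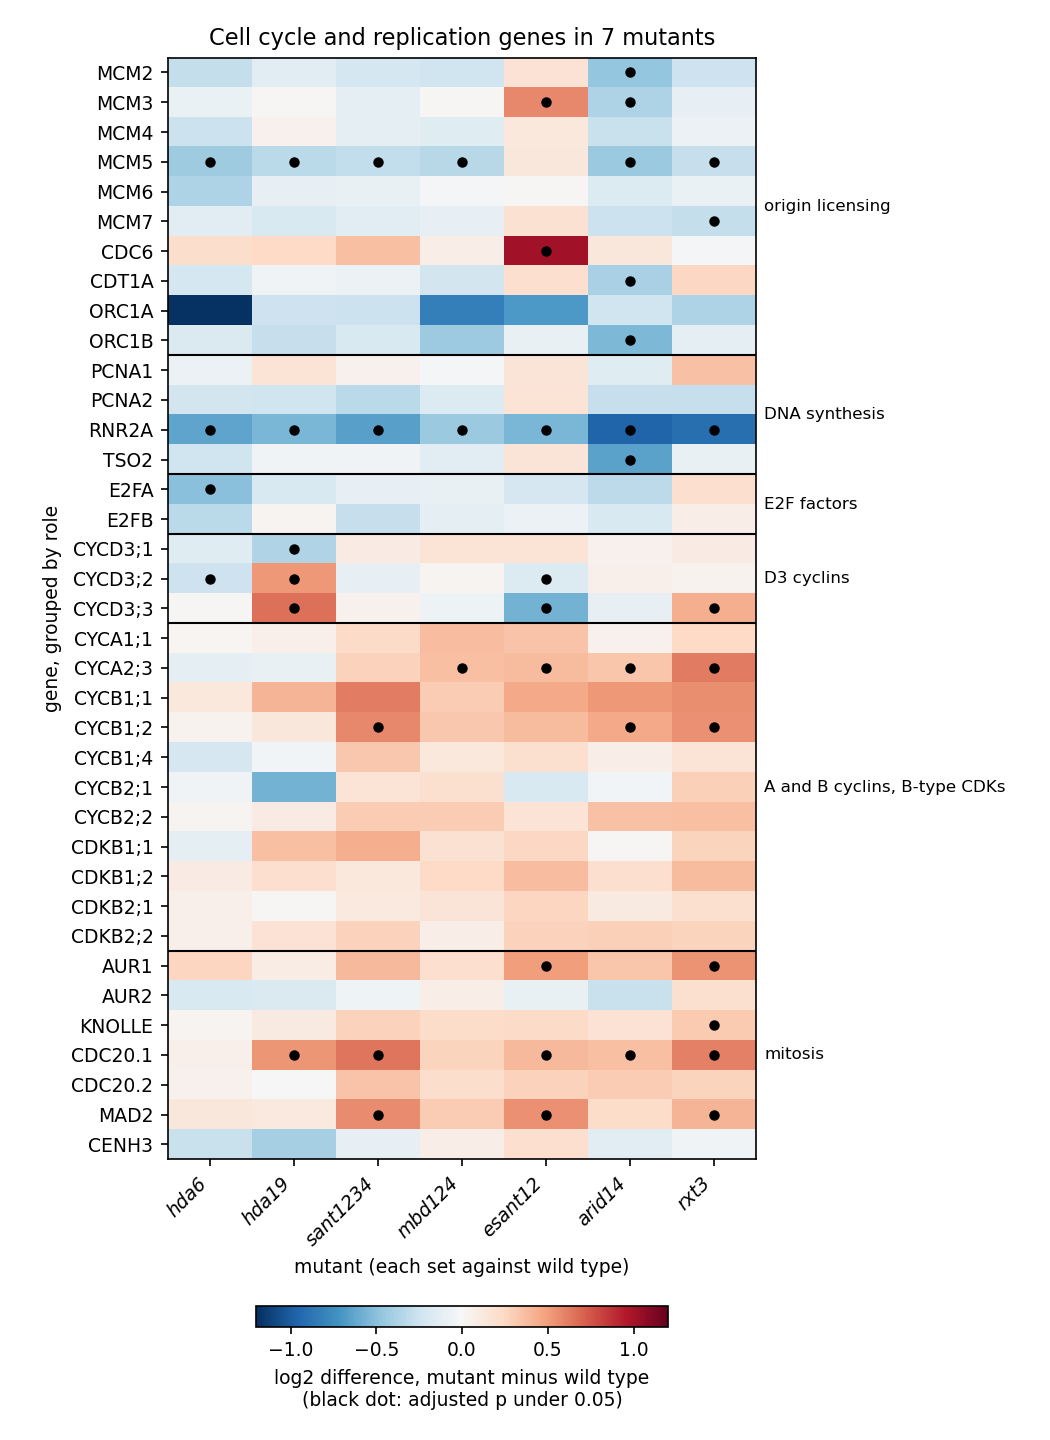
Colour gives the log2 difference of each of the 37 genes (rows, grouped by role) in each of the 7 mutants (columns) from WT, red for higher and blue for lower, and black dots mark adjusted p under 0.05. Dotted cells in the licensing, DNA synthesis and E2F rows are blue except for MCM3 and CDC6 in esant12, and RNR2A is dotted in all 7 columns. Of the dotted cells in the D3 cyclin rows, 3 are red and 4 blue. All 18 dotted cells among the A and B cyclin, B-type kinase and mitosis rows are red.

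The origin licensing genes held 13 of these calls, 11 lower and 2 higher, in 70 tests. That is 15.7% lower and 2.86% higher, against 14.5% lower and 12.5% higher for all genes over the 7 mutants. Both higher ones were in esant12 and 5 of the lower ones in arid14. MCM5 (AT2G07690), a subunit of the MCM helicase, was lower in 6 of the 7 mutants. It stood at 245 and 259 normalised counts in hda6, 273 and 268 in hda19, 264 and 285 in sant1234, 289.7 and 250 in mbd124, 376 and 368 in esant12, 259.9 and 234 in arid14 and 280.1 and 277 in rxt3, against 350 and 327 in WT. All libraries of these 6 mutants were below both WT libraries, and both esant12 libraries were above them. The fall was 0.45 ± 0.09 on the log2 scale in arid14 (SE, limma adjusted p = 0.0015) and 0.43 ± 0.09 in hda6 (adjusted p = 0.0039), and both calls held with each library left out. The differences in hda19 (-0.32), sant1234 (-0.30), mbd124 (-0.33) and rxt3 (-0.28) had limma adjusted p of 0.015 to 0.034 and did not hold. All 4 were lost without WT library 1. The call in hda19 was also lost without hda19 library 2, that in sant1234 without WT library 2 or either sant1234 library, that in mbd124 without WT library 2 or mbd124 library 2, and that in rxt3 without either rxt3 library (adjusted p = 0.061 to 0.28 over these losses).

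In esant12, MCM3 (AT5G46280), another helicase subunit, was at 408 and 423 normalised counts, against 282 and 273 in WT. CDC6 (AT2G29680), the factor that recruits the helicase to ORC, was at 109.9 and 126 in esant12, against 57.7 and 57.9 in WT. Neither gene's esant12 libraries overlapped those of any other genotype. MCM3 was thus at 150% of WT (log2 difference 0.58 ± 0.11, SE, limma adjusted p = 0.0014) and CDC6 at 204% (1.01 ± 0.16, adjusted p = 0.00038), and both calls held with each library left out. CDC6 shares 123 exon bases with a gene on the other strand in which no read was found. The other licensing genes in esant12 were not called, with MCM2 at 363 and 348, against 342 and 289.7 in WT, and MCM7 at 354 and 363, against 319 and 315 in WT.

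In arid14, MCM2 (AT1G44900) was at 239 and 219 normalised counts, against 342 and 289.7 in WT. MCM3 was at 206 and 223 in arid14, against 282 and 273 in WT. CDT1A (AT2G31270), which loads the helicase with CDC6, was at 124 and 121 in arid14, against 167 and 156 in WT, and ORC1B (AT4G12620), a large subunit of the origin recognition complex, at 70.9 and 74.7, against 118 and 94.9 in WT. In all 4 genes both arid14 libraries were below both WT libraries. These genes were at 68.2% to 77.2% of WT (limma adjusted p = 0.014 to 0.035). The call was lost for MCM2 without WT library 1 or arid14 library 2 (adjusted p = 0.093 to 0.13), for MCM3 without WT library 1 or arid14 library 1 (0.083 to 0.10), for CDT1A without any of the 4 libraries (0.055 to 0.13), and for ORC1B without WT library 1 or either arid14 library (0.087 to 0.23). Of the licensing genes called in arid14, MCM5 alone held with each library left out.

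MCM7 in rxt3, at 254 and 263, against 319 and 315 in WT, was called there together with MCM5 (-0.29 ± 0.10, limma adjusted p = 0.026), and it was lost without any of the 4 libraries (adjusted p = 0.061 to 0.11). MCM4, MCM6 and ORC1A were called in no mutant. ORC1A was the least abundant of the 37, at 4.35 normalised counts per kb of exon in WT, and its library values ran from 1.99 to 12.2, so its differences of -1.19 to -0.24 on the log2 scale were not resolved at this depth.

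**Figure D3:**
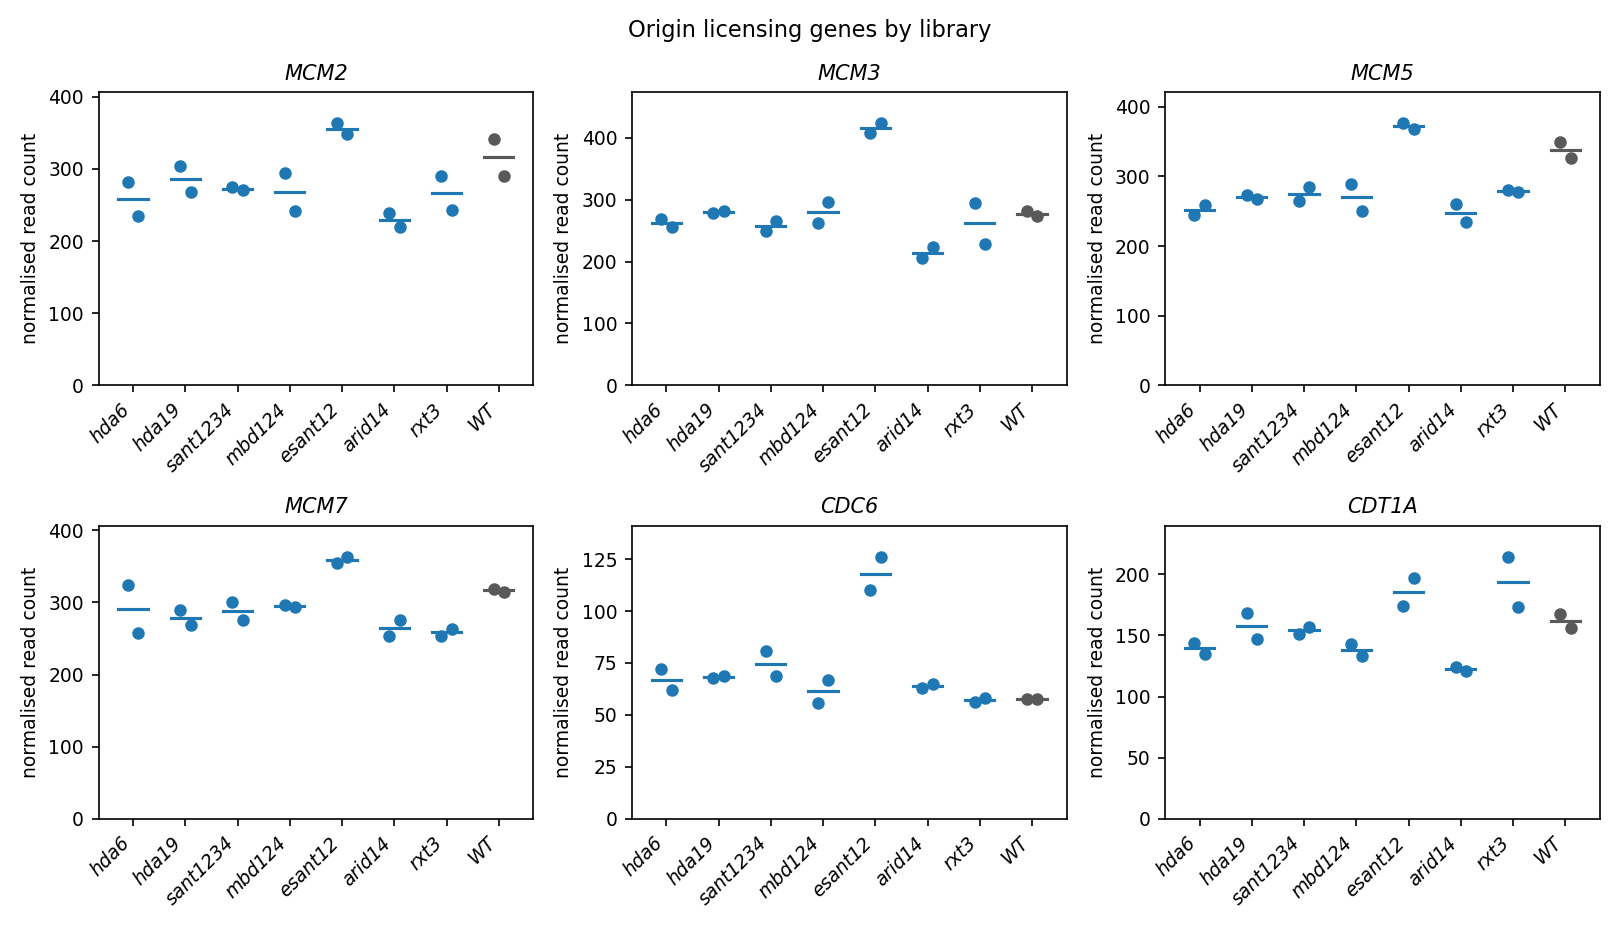
Points give the normalised read count of each library and short lines the mean of the 2 libraries for 6 licensing genes, with the 7 mutants in blue and WT in grey at the right. The esant12 points of MCM3 (408 and 423) and CDC6 (109.9 and 126) stand above all others, and the arid14 points of MCM2, MCM3, MCM5 and CDT1A lie below both WT points.

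The esant12 and arid14 mutants also differed from each other directly, in a comparison that takes no WT mean but uses the same mutant libraries. Of the 37 genes, 10 were higher and 2 lower in esant12 than in arid14, where 15.0% and 15.5% of all genes tested were called. The 10 included 4 of the 6 MCM genes with adjusted p of 0.0047 or lower (log2 differences of 0.44 for MCM7, 0.59 for MCM5, 0.63 for MCM2 and 0.95 for MCM3), CDC6 (0.87), CDT1A (0.59), PCNA2 (0.44), RNR2A (0.41) and TSO2 (0.79), and MCM4 (0.40, limma adjusted p rounding to 0.05). The 2 lower ones were CYCD3;2 and CYCD3;3. Among the 16 genes of licensing, synthesis and E2F, esant12 had the highest mean of the 8 genotypes for 9 and arid14 the lowest for 9. No share over all genes was taken for these counts of means. Over all 21 pairs of mutants, the genes were called in 119 of 777 tests, or 15.3%, against 25.7% for all genes. Between sant1234 and mbd124 limma called 0 of the 37 at an adjusted p under 0.05, and at an unadjusted p under 0.05 there were 1 higher and 2 lower. The share of all genes called in this pair is not given here, so the 0 is not read as a result about these genes.

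Ribonucleotide reductase makes deoxynucleotides and is built of large and small subunits. RNR2A (AT3G23580, chr3:8459838-8462815, plus strand), a small subunit, was at 589.9 and 567 normalised counts in hda6, 572 and 645 in hda19, 562 and 579 in sant1234, 687 and 618 in mbd124, 598 and 624 in esant12, 449.8 and 469 in arid14 and 468 and 488 in rxt3, against 858 and 929 in WT. None of the 14 mutant libraries reached either WT library, and those of arid14 and rxt3 were below all others. RNR2A was at 51.4% of WT in arid14 (log2 difference -0.96 ± 0.07, SE, limma adjusted p = 5.1e-07), 53.5% in rxt3 (-0.90 ± 0.07, adjusted p = 5.9e-07), 63.8% in sant1234, 64.7% in hda6, 68.1% in hda19, 68.4% in esant12 and 73.0% in mbd124 (-0.45 ± 0.07, adjusted p = 0.002). All 7 calls held with each library left out and under the other alternatives. The 7 comparisons share the WT libraries, and RNR2A was one of the few genes for which WT library 1 was below WT library 2. It shares 153 exon bases with AT3G23570 on the other strand, which was at 541 and 518 in arid14 (called lower, limma adjusted p = 0.0056) and 645 and 660 in rxt3, against 644 and 619 in WT, and was called higher in hda19 and sant1234.

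TSO2 (AT3G27060), another small subunit and the most abundant of the 37 per kb of exon in WT, changed in 1 mutant. It was at 807 and 811 normalised counts in arid14, below all other libraries, against 1448 and 1099 in WT, and the other 12 mutant libraries held 1051 to 1449. The fall in arid14 was 0.64 ± 0.12 on the log2 scale (SE, limma adjusted p = 0.00092) and held with each library left out. TSO2 shares 3 exon bases with AT3G27050 on the same strand, which was also lower in arid14 (-0.34, adjusted p = 0.0028). RNR1, the large subunit and one of the further replication genes examined, was at 701 to 963 in the 14 mutant libraries, against 1189 and 1075 in WT. It was called lower in all 7 mutants, at 66.3% of WT in arid14 (limma adjusted p = 7.9e-05), 72.5% in hda6, 74.1% in rxt3, 75.7% in mbd124, 79.6% in sant1234, 81.4% in esant12 and 83.3% in hda19. The calls in arid14, hda6 and rxt3 held under every alternative, while those in hda19, sant1234, mbd124 and esant12 were lost without WT library 1. They were also lost without either library of hda19 or esant12 and without library 2 of sant1234 or mbd124, with the largest adjusted p at 0.2 in hda19, 0.11 in sant1234, 0.079 in mbd124 and 0.14 in esant12. The clamp genes PCNA1 and PCNA2 were called in no mutant against WT, and PCNA2 ran from 189 to 277 over the mutant libraries, against 255 and 238 in WT.

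**Figure D4:**
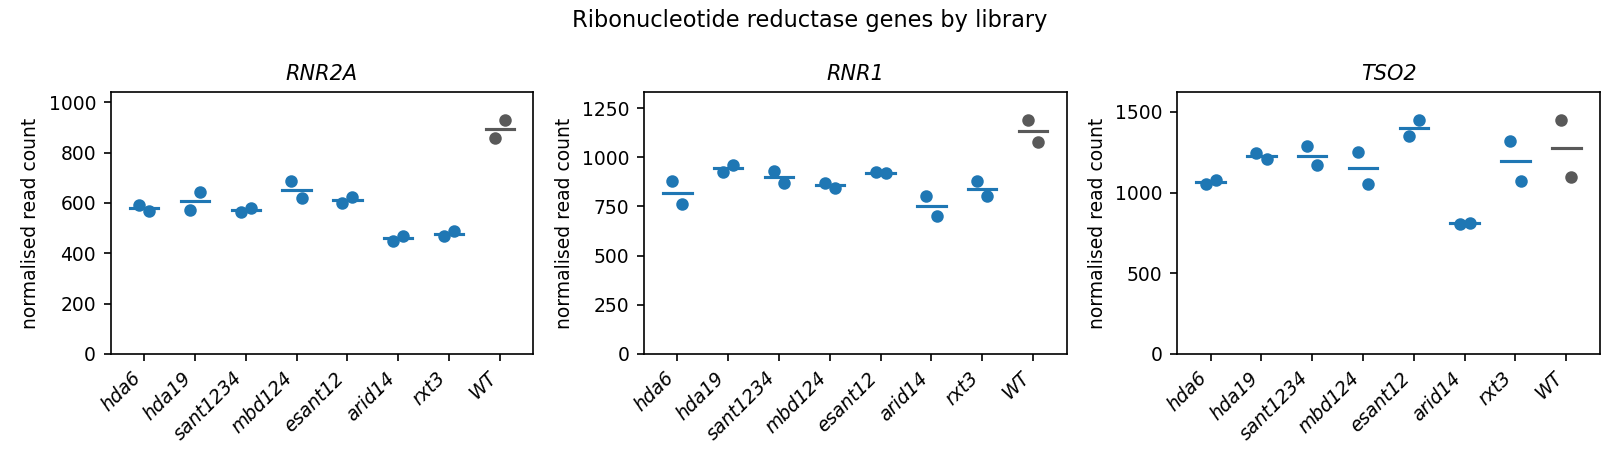
Points give the normalised read count of each library and short lines the mean of the 2 libraries for the small subunit genes RNR2A and TSO2 and the large subunit gene RNR1, with the 7 mutants in blue and WT in grey at the right. For RNR2A and RNR1 all 14 mutant points lie below both WT points, and for TSO2 only the arid14 points (807 and 811) stand apart.

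The E2F factors were called once. E2FA (AT2G36010), an activator of replication genes, was at 92.4 and 74.9 normalised counts in hda6, against 126 and 109.9 in WT (-0.50 ± 0.16, SE, limma adjusted p = 0.035), and the call was lost without either WT library or hda6 library 2 (adjusted p = 0.055 to 0.26). E2FA in rxt3 was at 144 and 127, and E2FB was called in no mutant. In hda6 the median of the 37 genes was the lowest of the 7 mutants. The 4 called there were MCM5, RNR2A, E2FA and CYCD3;2.

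Of the 3 D3-type cyclins, which promote division in young leaves, CYCD3;2 and CYCD3;3 were called higher in some mutants and lower in others, and CYCD3;1 was called once, lower in hda19. CYCD3;2 (AT5G67260) was at 1645 and 1568 normalised counts in hda19, 925 and 953 in hda6 and 1016 and 987 in esant12, against 1148 and 1094 in WT, and the other 4 mutants held 1004 to 1181. CYCD3;3 (AT3G50070) was at 433 and 386 in hda19, 332 and 366 in rxt3 and 169 and 178 in esant12, against 251 and 265 in WT, and the other 4 mutants held 225 to 271. For both genes the hda19 libraries were above those of all other genotypes. CYCD3;1 (AT4G34160) was at 368 and 351 in hda19, below all other libraries, against 494 and 429 in WT.

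In hda19, CYCD3;3 was at 159% of WT (log2 difference 0.66 ± 0.09, SE, limma adjusted p = 0.00014) and CYCD3;2 at 143% (0.52 ± 0.05, adjusted p = 1.5e-05), and both held with each library left out. CYCD3;1 was at 77.9% there (-0.36 ± 0.10, adjusted p = 0.018), a call lost without WT library 1 or hda19 library 2 (adjusted p = 0.10 to 0.16). In esant12, CYCD3;3 was at 67.3% of WT (-0.57 ± 0.09, adjusted p = 0.00055), which held, and CYCD3;2 at 89.3% (-0.16 ± 0.05, adjusted p = 0.04), which was lost without any of the 4 libraries (0.058 to 0.22). CYCD3;3 rose in rxt3 (0.44 ± 0.09, limma adjusted p = 0.0014) and CYCD3;2 fell in hda6 (-0.25 ± 0.05, adjusted p = 0.0039), and both held. Between hda19 and esant12, CYCD3;3 differed by 1.23 on the log2 scale (adjusted p = 6.3e-07). In that comparison 2 of the 37 genes were higher in hda19 and 9 lower, where 17.3% and 17.4% of all genes were called, and the 2 were CYCD3;2 and CYCD3;3. CYCD3;2 and CYCD3;1 overlap neighbouring genes by 103 and 40 exon bases. The neighbour of CYCD3;1 was at 2740 and 2900 in hda19, against 2340 and 2670 in WT, and was not called there. The neighbour of CYCD3;2 held at most 3.04 normalised counts in any mutant library.

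**Figure D5:**
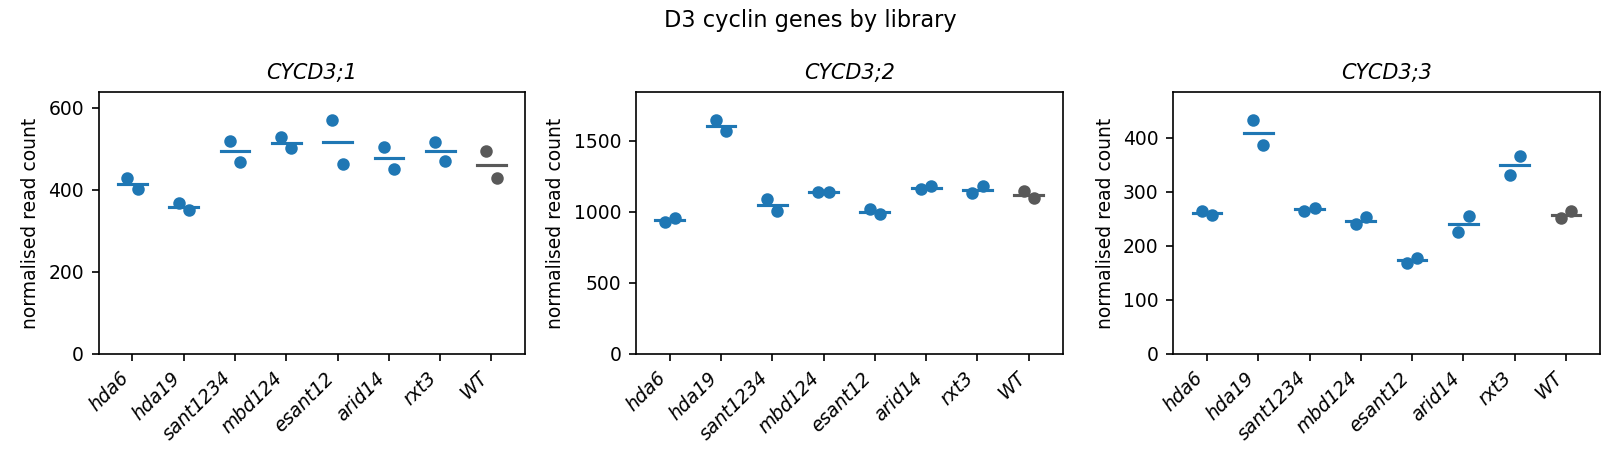
Points give the normalised read count of each library and short lines the mean of the 2 libraries for the 3 D3-type cyclins, with the 7 mutants in blue and WT in grey at the right. The hda19 points are the lowest for CYCD3;1 (368 and 351) and the highest for CYCD3;2 (1645 and 1568) and CYCD3;3 (433 and 386), where the esant12 points (169 and 178) are the lowest.

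The 18 mitotic genes held 18 calls, all higher, in 6 genes. These are 14.3% of their 126 tests, against 12.5% called higher for all genes over the 7 mutants, and 0% were called lower, against 14.5%. The other 12, among them all 4 B-type kinases, CYCA1;1, CYCB1;1, AUR2 and the centromeric histone CENH3, were called in no mutant. WT had the lowest mean of the 8 genotypes for 12 of the 18 mitotic genes, a count for which no share over all genes was taken. WT library 2 was below WT library 1 for 32 of the 37 genes. CYCB1;1, for example, was at 70.7 and 84.8 normalised counts in sant1234, against 63.7 and 40.0 in WT. The 14 mutant libraries ran from 53.9 to 89.6, so WT library 1 lay within their range and WT library 2 below it.

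CYCA2;3 (AT1G15570), an A-type cyclin that with CDKB1;1 holds back DNA copying without division, was at 281 and 304 normalised counts in mbd124, 286 and 304 in esant12, 311 and 262 in arid14 and 353 and 346 in rxt3, against 244 and 211 in WT. All 8 of these libraries were above both WT libraries. The rise in rxt3 was 0.62 ± 0.11 on the log2 scale (SE, limma adjusted p = 0.00031) and held with each library left out. The smaller ones in mbd124, esant12 and arid14 (126% to 130% of WT, adjusted p = 0.019 to 0.046) were each lost without WT library 2 and without library 1 of the mutant, and those in mbd124 and esant12 also without library 2 of the mutant, with mbd124 lost without WT library 1 too (adjusted p = 0.051 to 0.28). CYCA2;3 shares 48 exon bases with AT1G15580 on the other strand, which was itself called higher in hda6, esant12 and arid14 but stood at 28.1 and 42.5 in rxt3, against 36.8 and 58.0 in WT.

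CYCB1;2 (AT5G06150), a mitotic cyclin, was at 173 and 170.5 normalised counts in sant1234, 160.5 and 152 in arid14 and 182 and 155 in rxt3, against 126 and 104 in WT. These libraries did not overlap WT, and the gene stood at 136% to 149% of WT (limma adjusted p = 0.0098 to 0.04). The calls were lost without WT library 2, and also without either library of sant1234 or arid14 or library 1 of rxt3 (adjusted p = 0.076 to 0.26). Of its exonic 50-base stretches, 11.3% also occur elsewhere in the genome, so reads could be shared.

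CDC20.1 (AT4G33270), an activator of the complex that degrades mitotic cyclins, was called higher in 5 mutants. It was at 171 and 174 normalised counts in hda19, 166 and 207 in sant1234, 155 and 158 in esant12, 155 and 152 in arid14 and 195 and 168 in rxt3, against 130.3 and 109 in WT, with no overlap. The rise in rxt3 (0.60 ± 0.13, SE, limma adjusted p = 0.0019) held with each library left out. Those in hda19 (0.53) and sant1234 (0.64) were lost without WT library 2 (adjusted p = 0.077) and without sant1234 library 2 (0.059), and those in esant12 (0.39) and arid14 (0.36) without WT library 2 or either mutant library (0.12 to 0.30). Of its exonic 50-base stretches, 33.2% occur elsewhere, and of those of its neighbour CDC20.2 36.3%, so the split of reads between this pair is uncertain. CDC20.2 was called in no mutant and held 47.8 to 83.7 in the mutant libraries, against 53.7 and 60.9 in WT.

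MAD2 (AT3G25980), a spindle checkpoint protein, was at 145 and 142 normalised counts in sant1234, 136 and 147 in esant12 and 136 and 120.4 in rxt3, against 100.4 and 91.9 in WT (133% to 149% of WT, limma adjusted p = 0.011 to 0.03). The calls were lost without WT library 2, and also without either sant1234 library, esant12 library 2, or WT library 1 or rxt3 library 1 (adjusted p = 0.052 to 0.17). AUR1 (AT4G32830), an Aurora kinase, was at 129.6 and 151 in esant12 and 169 and 122 in rxt3, against 112 and 86.9 in WT (0.50 ± 0.17 and 0.54 ± 0.17, SE, limma adjusted p = 0.043 and 0.018). Both were lost without WT library 2, and also without either esant12 library or rxt3 library 1 (adjusted p = 0.065 to 0.30). AUR1 shares 290 exon bases with AT4G32840 on the other strand, which was also higher in rxt3, at 310 and 315, against 187 and 190 in WT. KNOLLE (AT1G08560), the syntaxin of the growing cell plate, was at 274 and 244 in rxt3, against 219 and 198 in WT (0.31 ± 0.12, limma adjusted p = 0.046), lost without either WT library or rxt3 library 1 (0.057 to 0.25). KNOLLE shares 464 exon bases with AT1G08550 on the other strand, at 804 and 800 in rxt3, against 818 and 903 in WT.

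The arid14 and rxt3 mutants, which had the lowest RNR2A, differed in 7 of the 37 genes, with 0 higher and 7 lower in arid14, where 21.9% and 20.6% of all genes were called. At an unadjusted p under 0.05 limma gave 0 higher and 9 lower. The 7 were CDT1A, PCNA1, TSO2, E2FA, CYCD3;3, CYCA2;3 and AUR2, with log2 differences of -0.64 for CDT1A (adjusted p = 0.00093) to -0.29 for CYCA2;3 (adjusted p = 0.041).

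A wider set of 79 further genes of replication, mitosis, cell cycle control, kinase inhibition and the DNA damage response was examined, of which 77 were tested. Against WT, 1 was called higher and 8 lower in hda6, 5 and 4 in hda19, 1 and 7 in sant1234, 1 and 2 in mbd124, 7 and 5 in esant12, 3 and 9 in arid14, and 19 and 9 in rxt3. As shares of the 77, beside the shares of all genes given above, these were 1.3% higher and 10.4% lower in hda6, 6.49% and 5.19% in hda19, 1.3% and 9.09% in sant1234, 1.3% and 2.6% in mbd124, 9.09% and 6.49% in esant12, 3.9% and 11.7% in arid14, and 24.7% and 11.7% in rxt3, so only the higher share in rxt3 was above that of all genes (22.3%). With 1 library left out at a time, the higher counts ran from 1 to 2 in hda6, 3 to 4 in hda19, 1 to 1 in sant1234, 0 to 1 in mbd124, 3 to 5 in esant12, 1 to 2 in arid14 and 9 to 15 in rxt3. The lower counts ran from 3 to 5 in hda6, 1 to 3 in hda19, 2 to 5 in sant1234, 0 to 1 in mbd124, 1 to 3 in esant12, 5 to 8 in arid14 and 4 to 7 in rxt3. In rxt3 the higher count was 11 without WT library 2 and 9 without rxt3 library 1, and the lower count 4 without rxt3 library 2.

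Of all genes, 14.0% were called higher in hda19, 11.5% in esant12, 15.1% in arid14 and 22.3% in rxt3. Of the 15 further mitosis genes, 1 was called higher in each of hda19, esant12 and arid14 and 4 in rxt3. All of these higher calls were lost without WT library 2, when another gene was called in rxt3, and in rxt3 0 were called higher without rxt3 library 1 and 2 without rxt3 library 2. The 1 call lower was that of the checkpoint gene MAD1, at 424 and 421 normalised counts in rxt3, against 601 and 573 in WT (limma adjusted p = 4.4e-05). Of 20 further replication genes, 19 were tested. Called lower were 4 in hda6, 2 in hda19, 3 in sant1234, 1 in mbd124, 1 in esant12, 5 in arid14 and 5 in rxt3. Over all genes, 12.5%, 16.2%, 11.3%, 5.27%, 14.3%, 17.2% and 24.9% were called lower in the same order. Of the 19, 1 was called higher in hda19, 2 in esant12 and 2 in rxt3, against 14.0%, 11.5% and 22.3% of all genes. Without WT library 1 the lower counts became 1 in hda6, 0 in hda19, 1 in sant1234, 0 in mbd124, 0 in esant12, 2 in arid14 and 2 in rxt3, and without library 2 of the mutant 1, 0, 0, 0, 0, 2 and 2 in the same order. Without library 1 of the mutant the lower count became 2 in hda6, 0 in hda19, 0 in esant12 and 2 in rxt3, and without WT library 2 it became 2 in hda6. The higher count became 0 in hda19 without WT library 2 or hda19 library 2, 1 in esant12 without WT library 2 or either esant12 library, and 1 in rxt3 without WT library 1 or rxt3 library 1. ORC3, an origin recognition subunit, was at 63.0 and 62.7 normalised counts in arid14, against 103 and 86.9 in WT (66.0%, limma adjusted p = 0.0042), a call lost without WT library 1. ORC4, another subunit of that complex, was at 210.5 and 242 in esant12 and 222 and 202 in rxt3, against 123 and 117 in WT (188% and 177% of WT, limma adjusted p = 0.00027 and 0.0002). CYCD2;1, another D-type cyclin, was at 72.3% of WT in esant12 (adjusted p = 0.00029).

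SMR1, an inhibitor of cyclin-dependent kinases that favours DNA copying without division, was at 196 and 167 normalised counts in hda6, 176 and 198 in hda19, 200.2 and 158 in sant1234, 203 and 249.8 in mbd124, 305 and 253 in esant12, 197 and 186 in arid14 and 188 and 162 in rxt3, against 316 and 336 in WT. It fell in all mutants but esant12, to 53.6% of WT in rxt3 (limma adjusted p = 0.00019), and in mbd124 the call was lost without either WT library or mbd124 library 1. Of the 826 exon bases of SMR1, 375 overlap AT3G10527 on the other strand. The values of that neighbour were not examined, so its part in the SMR1 counts is unknown. CCS52A1, which activates the degradation of mitotic cyclins in cells that stop dividing, was at 394 and 392 in rxt3, against 232 and 218 in WT (175%, limma adjusted p = 0.00014). DEL2, an atypical E2F repressor, was at 58.8 and 52.2 in hda19 and 37.9 and 42.5 in rxt3, against 21.9 and 17.0 in WT.

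GMI1, a gene induced by DNA breaks that acts in their repair, was at 197 and 157 normalised counts in hda6, 349.8 and 292 in hda19, 277 and 266 in sant1234, 95.9 and 88.4 in mbd124, 134 and 126 in esant12, 117 and 94.5 in arid14 and 266 and 232 in rxt3, against 85.5 and 93.9 in WT. It rose to 358% of WT in hda19 (limma adjusted p = 1.6e-06), 303% in sant1234, 277% in rxt3, 197% in hda6 and 145% in esant12, the last lost without WT library 1 or esant12 library 1 (largest adjusted p = 0.093). PARP2, a polymerase of the break response, was at 375 and 312 in rxt3, against 151 and 168 in WT (limma adjusted p = 6e-06), and XRI1 at 152% of WT in rxt3 (adjusted p = 0.0017). SOG1, the transcription factor above this response, was at 122% in rxt3 (adjusted p = 0.018), lost without either WT library or rxt3 library 1 (largest adjusted p = 0.13). BRCA1, a repair gene that this factor activates, was called in no mutant.

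Markers of tissues that hold dividing cells differed from WT in some mutants, in directions that did not always match those of the gene groups. Their part in the results was not tested. Summed shoot meristem markers were 1376 to 1416 in arid14 and 752 to 772 in hda19, against 875 to 935 in WT, with 1 of the 3 tested called in each (CLV1, at 160% and 81.8% of WT), while WUS and CLV3 were at or near 0 in all libraries. CLV1 makes up most of the sum and was also higher in hda6, sant1234, mbd124 and esant12. KNAT1 was at 42.7 and 45.9 in hda6 and 86.5 and 99.7 in rxt3, against 63.6 and 64.9 in WT, and was called lower in hda6 and higher in rxt3. The KNAT1 calls were lost without either WT library, and also without either hda6 library or rxt3 library 2. Summed root meristem markers were 1080 to 1149 in arid14 and 1008 to 1032 in rxt3, against 1489 to 1516 in WT, and 1 and 3 of the 5 were called there, with SCR at 70.2% of WT in arid14 and 64.8% in rxt3. In rxt3 SHR was also called lower (71.9%), while PLT2 was called higher, at 25.3 and 15.8, against 6.96 and 4 in WT. SCR was called in hda6, hda19 and esant12 too, and SHR in hda19, each call lost with at least 1 library left out. PLT2 and WOX5 were called higher in sant1234. Both calls in sant1234 were lost without WT library 2 or either sant1234 library, and that of WOX5 also without WT library 1. Unlike the sum, the mean log2 value of the 5 root markers did not fall below the WT range. It was 5.84 and 5.49 in arid14 and 5.76 and 5.67 in rxt3, against 5.59 and 5.36 in WT. Summed young leaf markers were 791 to 827 in esant12, against 619 to 736 in WT, with GRF5 called higher among 5, a call lost without WT library 2 or esant12 library 2. Over the 7 mutants the root sums ran from 1008 to 1475, the shoot sums from 752 to 1416 and the leaf sums from 584 to 827. Stomatal lineage markers, at 383 to 579 in the mutants, against 431 to 551 in WT, had 0 of 5 called in any mutant by limma. Of 4 floral markers, AP1 and LFY were at or near 0, and AP3 and AG were tested. Both were called higher in rxt3, where the sum was 36 to 39, against 9 to 13 in WT, AP3 was called higher in sant1234 and AG lower in esant12, all at under 25 normalised counts. All of these AP3 and AG calls were lost without WT library 2 and without at least 1 library of the mutant.

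Overlapping and repeated sequence limits some of these values, since the strand setting of the counting is not given in the sources used here. Of the 37 genes, 18 overlap another annotated gene, 16 of them on the opposite strand, and 5 have over 1% of their exonic 50-base stretches elsewhere in the genome.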

How the data were processed

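Per the labels' protocols, total RNA of 14-day-old seedlings was sequenced as single-end reads of 50 bases. Per the submitters' processing notes, reads were mapped to TAIR10 with HISAT2 2.1.0, counted with featureCounts and normalised with edgeR. The options and strand setting are not given in the sources used here. The authors deposited 1 normalised signal value per gene and library. All values (100% within a relative tolerance of 1e-06) matched edgeR's library-size adjusted counts of whole reads at a common dispersion of 0.0034, so reads were recovered. In all, 5616 genes had no read.

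From the deposited values, limma 3.58.1 with a trend (R 4.3.3) was fitted to log2(value + 1) over all 16 libraries and 8 genotypes (8 residual, 6.06 prior degrees of freedom), so fold changes of low genes are understated. The test planned for counts was not used, since values were normalised. Differences were adjusted by Benjamini-Hochberg over 20846 genes. Alternatives were median-of-ratios scaling, no filter, a minimum of 50, a pseudocount of 0.1, a fit of 2 genotypes, a replicate block, edgeR 4.0.16 and DESeq2 1.42.0 on recovered reads, and leaving out each library. Replicate libraries differed beyond sampling noise (chi-square per gene 2.49 to 5.34). The fit was tested on simulated data.

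Promoters, exons and overlaps came from the TAIR10.1 RefSeq annotation, whose coordinates matched the table for 37 of 37 genes. The genes and lists were chosen with earlier results of these data known. All 37 may be named, and of the wider lists up to 3 called genes per list, mutant and direction, by size of change. SOG1, BRCA1 and the neighbours of the 37 genes were named after their values were seen.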

Additional observations from a re-analysis of the deposited data

Results flagged for a closer look

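MCM3, CYCD3;2 and CYCD3;3 were called in opposite directions in different mutants. The direct differences between those mutants, from the same limma fit and the same mutant libraries, were called too. Each is the gap between changes already called in opposite directions, so these direct calls were largely set in advance and add no separate evidence. MCM3 was higher in esant12 (0.58) and lower in arid14 (-0.37) than in WT on the log2 scale, and esant12 exceeded arid14 by 0.95 (adjusted p = 2.2e-05). CYCD3;2 was lower in hda6 (-0.25) and higher in hda19 (0.52), a difference of -0.77 for hda6 minus hda19 (adjusted p = 2.7e-07), and hda19 exceeded esant12 (-0.16) by 0.68 (adjusted p = 1e-06). CYCD3;3 was higher in hda19 (0.66) and lower in esant12 (-0.57), a difference of 1.23 for hda19 minus esant12 (adjusted p = 6.3e-07), and it was higher in rxt3 (0.44), a difference of -1.01 for esant12 minus rxt3 (adjusted p = 1.3e-06). With 2 libraries per genotype, no genotype was large enough to test for a library far from the others.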

How the results depend on the processing

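Of the 47 calls against WT, 19 held under every alternative, and none of the 564 repeated tests reversed. DESeq2 on recovered reads lost 22 of 47 calls, the fit of 2 genotypes alone 11, no filter 7 and edgeR 1, while scaling, pseudocount, stricter filter and replicate block each lost 0, and scaling moved the median of all genes by at most 0.02. With DESeq2 the count of higher genes became 1 in sant1234, 0 in mbd124, 2 in esant12 and 0 in arid14, and of lower genes 1 in sant1234, 1 in mbd124, 4 in arid14 and 1 in rxt3. With no filter the higher count became 0 in mbd124 and 1 in arid14. With 2 genotypes fitted alone the higher count became 0 in mbd124 and 1 in arid14, and the lower count 1 in mbd124. The cause was not tested. With 1 library left out, where a lone sample is assumed to vary like the other groups, the counts ranged as follows. In hda6 higher genes stayed at 0 and lower ones ran from 3 to 5, in hda19 from 2 to 3 and 1 to 4, in sant1234 from 1 to 4 and 1 to 1, in mbd124 from 0 to 0 and 1 to 2, in esant12 from 2 to 7 and 2 to 2, in arid14 from 0 to 5 and 3 to 6, and in rxt3 from 3 to 10 and 1 to 2. Genes that differed among genotypes ran from 14 to 18, against 17, and calls over pairs of mutants from 103 to 121, against 119. Over all genes tested, no pairing of libraries by replicate number was seen: deviations of same-numbered libraries correlated at -0.09 to 0.12 (28 genotype pairs, with 3 above 0.1). The summed level of the 37 genes was nonetheless higher in library 1 in 7 of 8 genotypes. With a replicate block the lower count was 5 in hda6 and 4 in rxt3, the higher count 7 in esant12, and calls over pairs 136. At 2 libraries per genotype and changes mostly under 1.5-fold, genes not called may still differ.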
